A study of Apostichopus japonicus with 9 samples.

Results

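The muscle miRNAs of the sea cucumber *Apostichopus japonicus* were taken as the entries named for the families miR-1, miR-133, miR-206, miR-208 or miR-499, with any letter or arm suffix. They numbered 6 of the 475 entries, or 6 of 186 with a known name: 2 of the miR-1 family, 3 of the miR-133 family and 1 of the miR-206 family. No entry of miR-208 or miR-499 was listed. A predicted entry that the authors numbered 1 in a series of their own does not belong to miR-1 and was left out. Small RNAs were sequenced from the respiratory tree, the branched breathing organ of sea cucumbers, after 3 days at a dissolved oxygen (DO) of 2 mg/L (DO2, severe hypoxia), 4 mg/L (DO4, mild hypoxia) or 8 mg/L (DO8, normoxia). Per the study's methods, each group held 3 libraries with RNA pooled from 3 animals apiece. The methods were followed here over the labels, which describe single animals, so n = 3 stands for pools. The p values then measure the spread between pools, not between single animals.

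miRNAs are small RNAs that guide a silencing complex to messenger RNAs, mainly through the seed, bases 2 to 8 of the miRNA. miR-1 and miR-133 are cut from hairpins that lie close together in the genomes of many animals, and in vertebrates both are made mostly in heart and skeletal muscle. miR-1 occurs in the muscle of worms and flies as well. miR-206 is a close relative of miR-1 found in the skeletal muscle of vertebrates. Respiratory tree walls hold muscle layers, which contract to pump water.

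The 6 sequences are shown because the results turn on how the entries of a family differ. They come from the deposited files, which write T for U, and the capitals mark the seed.
Aja-miR-1a-3p: tGGAATGTaaagaagtatgtgt
Aja-miR-1: tGGAATGTaaagaagtat
Aja-miR-206-3p: tGGAATGTaaggaagtgtgtggt
Aja-miR-133-3p: tTTGGTCCccttcaaccagccgt
Aja-miR-133: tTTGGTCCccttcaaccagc
Aja-miR-133a-5p: aGCTGGTAaacgggaaccaaat

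Aja-miR-1, Aja-miR-1a-3p and Aja-miR-206-3p share 1 seed, Aja-miR-133 and Aja-miR-133-3p share another, and none of the 3 seeds occurs in any other of the 475 entries. Aja-miR-1 has 18 nt, the shortest length in the files, and is the exact start of the 22 nt Aja-miR-1a-3p. Aja-miR-133 has 20 nt and is the exact start of the 23 nt Aja-miR-133-3p. The shorter entry of each pair is called the short form here and the longer one the full form. They differ only at the 3′ end, where the full forms have 4 and 3 more bases. Aja-miR-206-3p differs from Aja-miR-1a-3p by A11G, A17G and T22G, counted from the 5′ end with the base of Aja-miR-1a-3p first, and has 1 more base. Aja-miR-133a-5p comes from the other arm of the hairpin and pairs with Aja-miR-133-3p at 16 of 21 facing positions.

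The deposited values are reads per miRNA multiplied by 1 factor per library, and the source of that factor is not known. The study's methods state values in RPM over clean reads, which are all reads left after trimming. A library's values, however, sum to between 2029412 and 3984844, more than that formula can give, so the values were analysed as deposited and the division by clean reads was run as an alternative. An entry is called listed in a library where its value is above 0. The worth of 1 read was worked out from predicted entries whose names give their reads, in all DO2 libraries and 2 of DO4, and otherwise from the steps in which the values rise. It was 1.22 to 6.18 in DO2 and 0.556 to 0.682 in the other 6 libraries. The miRNA reads behind the values were 335658, 628808 and 1740914 in DO2 and 4681523 to 6024869 in the other 6 libraries. A low value in DO2 thus rests on fewer reads, and the DO2 libraries stand apart from the rest before any miRNA is compared. They also held miR-6236 and miR-6240 entries, which resemble fragments of other RNAs, at a summed value of 7585 to 71482, against 136.8 to 374 elsewhere. The study reports similar numbers of clean reads in all groups, with a smaller part of them miRNA and a larger part rRNA in DO2. The part of miRNA read number, of this make-up and of such fragments in the results below was not tested. In pooled tissue, fewer muscle cells and less of a miRNA per cell cannot be told apart.

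The full form of miR-1 was among the most abundant miRNAs in every library and was highest in DO2. Aja-miR-1a-3p had values of 122403, 72310 and 110416 in DO2, against 88375, 66733 and 77038 in DO4 and 58034, 46931 and 60661 in DO8. All DO2 and all DO4 libraries lay above all DO8 libraries, and DO2 overlapped DO4. The entry stood 4th or 5th by value in DO2, between 6th and 8th in DO4, and 10th in each DO8 library. The means were 101709 ± 26157, 77382 ± 10825 and 55209 ± 7288 (SD, n = 3). Between DO2 and DO8 the log2 change was 0.85 (SE 0.24; limma on log2(value + 1), adjusted p = 0.0221). The call ended without DO2_1, DO2_3, DO8_1 or DO8_2 (adjusted p = 0.0820, 0.0590, 0.0634 and 0.0984 in limma), and with clean reads as library size, the scaling that the study's methods state, the direction reversed (log2 change -1.35, adjusted p = 0.0454). DO2 against DO4 gave 0.37 (SE 0.24, adjusted p = 0.252 in limma) and DO4 against DO8 0.49 (SE 0.24, adjusted p = 0.802 in limma), of which the first also reversed with clean reads (-1.68, adjusted p = 0.0198) but was called higher with equal miRNA totals (1.13, adjusted p = 0.00390; limma).

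The short form of miR-1 was rare everywhere and, on the deposited scale, rose in DO2. Aja-miR-1 had 92.8, 58.1 and 47.5 in DO2, against 7.28, 8.86 and 10.1 in DO4 and 4.78, 12.2 and 4.07 in DO8. These values rest on 15, 18 and 39 reads in DO2, against 11, 13 and 16 in DO4 and 8, 22 and 7 in DO8. Every DO2 value lay above every other value, while DO4 and DO8 overlapped. The mean of 66.1 ± 23.7 in DO2 was 9.41 times that in DO8 (7.03 ± 4.52) and 7.55 times that in DO4 (8.76 ± 1.43; SD, n = 3). In limma the log2 change was 3.15 against DO8 (SE 0.57, adjusted p = 0.00247) and 2.74 against DO4 (SE 0.57, adjusted p = 0.00440), and both passed with any 1 library left out. With clean reads as library size it stayed positive but did not pass (1.05 and 0.77, adjusted p = 0.196 and 0.337 in limma). DO4 against DO8 gave 0.41 (SE 0.57, adjusted p = 0.815 in limma).

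**Figure D1:**
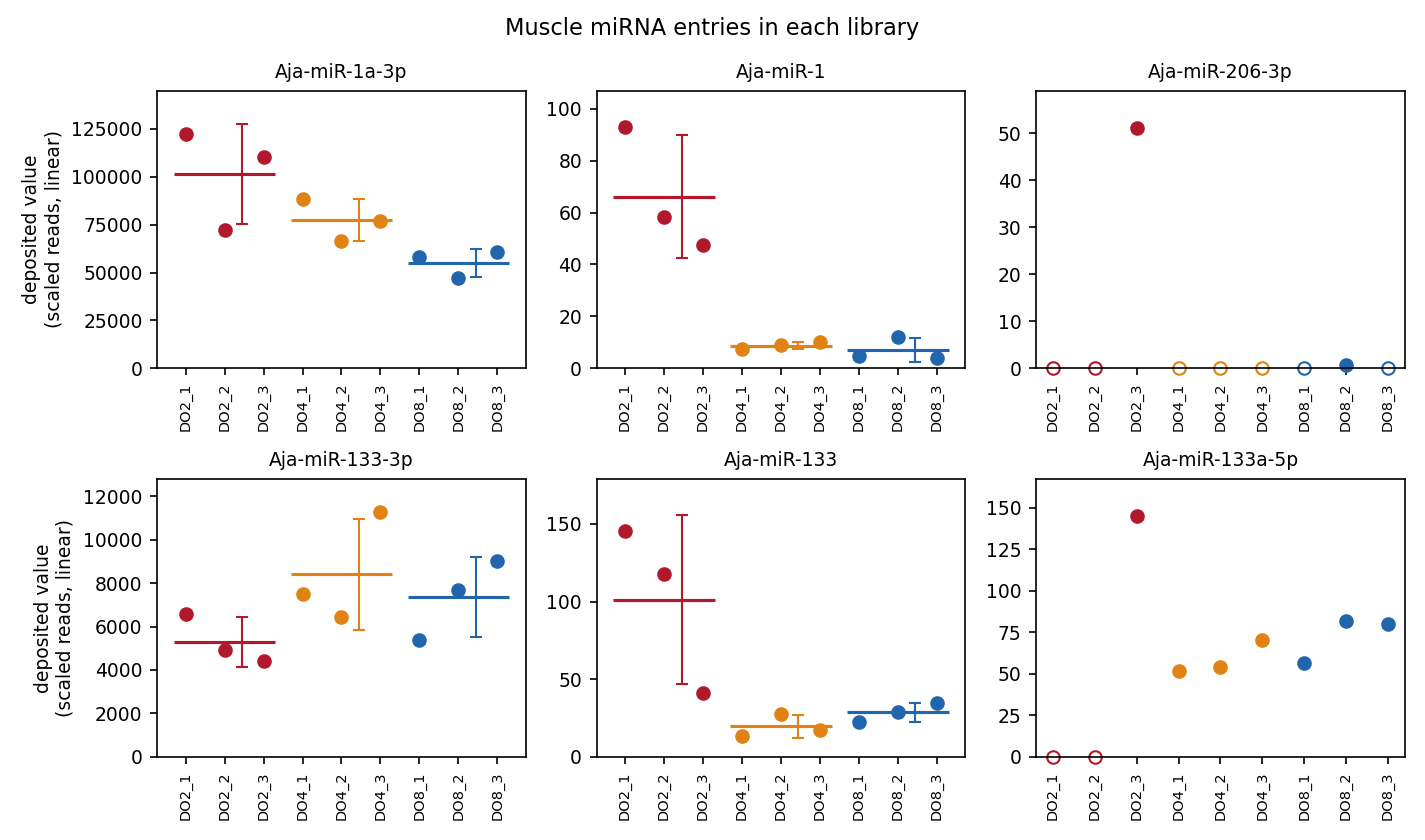
Deposited values (scaled reads, linear axes from 0) of the 6 muscle entries in the 9 libraries, with group means as lines and SD as bars for the 4 entries listed in every library. Open points are values of 0. Aja-miR-1 is between 47.5 and 92.8 in DO2 and at most 12.2 elsewhere, whereas Aja-miR-133-3p overlaps between all groups.

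The full form of miR-133 overlapped between all groups. Aja-miR-133-3p had 6584, 4930 and 4392 in DO2, against 7498, 6441 and 11279 in DO4 and 5395, 7704 and 9043 in DO8. The means were 5302 ± 1142, 8406 ± 2544 and 7380 ± 1845 (SD, n = 3). The log2 change was -0.47 for DO2 against DO8 (SE 0.29, adjusted p = 0.266), -0.64 for DO2 against DO4 (adjusted p = 0.124) and 0.18 for DO4 against DO8 (adjusted p = 0.854; limma). The sign of these differences rests on the scaling. With equal miRNA totals they were 0.088, 0.12 and -0.033, and with clean reads as library size the values in DO2 were called lower (-2.67 and -2.69, adjusted p = 0.00073 and 0.00072 in limma).

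The short form of miR-133 had its highest deposited values in DO2. Aja-miR-133 had 145.3, 118 and 40.8 in DO2, against 13.6, 27.6 and 17.4 in DO4 and 22.4, 28.9 and 34.8 in DO8. Again every DO2 library lay above the other 6, though DO2_3 only narrowly. The log2 change against DO4 was 2.19 (SE 0.60, adjusted p = 0.0183 in limma), and that against DO8 was 1.62 and missed the threshold (SE 0.60, adjusted p = 0.0623 in limma). Against DO4 the call ended without DO2_1, DO2_2 or DO4_1 (adjusted p = 0.0549, 0.0642 and 0.0759) and when only DO2 and DO4 were fitted (0.0530), and against DO8 it passed without DO2_3 (0.00542), with equal miRNA totals (2.16, adjusted p = 0.0243) and with 10 added to the values (1.39, adjusted p = 0.0448; limma). With clean reads as library size neither passed, and the change against DO8 turned to -0.54. Some reads of the miR-133 pair appear to be shared between its forms in fractions, since the short and full forms summed to whole reads in 9 of 9 libraries, but each alone was whole in only 2. Behind Aja-miR-133 stood 23.5 to 36.5 reads in DO2, against 20.5 to 40.5 in DO4 and 37.5 to 60 in DO8.

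The arm opposite miR-133 was listed unevenly in DO2. Aja-miR-133a-5p was at 0 in DO2_1 and DO2_2 and at 144.8 (119 reads) in DO2_3, its highest value. It had 51.6, 53.9 and 70.3 in DO4 and 56.2, 81.7 and 80.1 in DO8, on 78 to 147 reads. Per 1000 of Aja-miR-133-3p, the 5p arm stood at 33.0 in DO2_3, 6.23 to 8.36 in DO4 and 8.86 to 10.6 in DO8. In DO2_1 and DO2_2 the smallest value listed for any miRNA (12.4 and 6.45, or 2 reads each) would have been 1.88 and 1.31 per 1000, below all libraries that listed it. The fitted log2 change of -3.79 against DO8 (SE 1.61, adjusted p = 0.0972 in limma) therefore averages libraries on both sides of the controls. It passed without DO2_3 (-6.18, adjusted p = 7.34e-06 in limma), when entries were not filtered (adjusted p = 2.13e-05) and with clean reads as library size (adjusted p = 0.00576). Against DO4 it was -3.49 (SE 1.61, adjusted p = 0.126 in limma) and passed under the same 3 settings (adjusted p = 8.61e-06, 0.000132 and 0.0125). Without DO2_3 all DO2 values are 0 and have no spread (SE 0.38 in both comparisons), so those p values rest on values at the floor. Without the filter the 2 changes were the same and only the SE fell, from 1.61 to 0.75 in both comparisons. The fit draws the spread partly from all entries fitted, so those lower p values do not come from this entry's own values.

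Aja-miR-206-3p was listed in only 2 libraries and was not tested. It had a value of 51.1 in DO2_3, from 42 reads, and 0.741 in DO8_2, from 1.33 reads. DO2_3 listed all 6 muscle entries and had the most miRNA reads of the DO2 libraries, though fewer than any DO4 or DO8 library. DO2_1 and DO2_2 listed 4 each, the DO4 libraries 5 each, and the DO8 libraries 5, 6 and 5.

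Among all 90 entries tested, 31.1% passed the threshold in DO2 against DO8, 31.1% passed it in DO2 against DO4, and 0% passed it in DO4 against DO8 (limma, adjusted p under 0.05). In the 2 DO2 comparisons 21 and 22 of the 28 calls each were higher in DO2, but 13 of 68 and 13 of 63 with clean reads as library size and 30 of 34 and 36 of 37 with equal miRNA totals. An entry listed only in DO2 enters the 90 through that group and can only be called higher there. The direction counts and the share called thus depend partly on the filter. Of the 5 muscle entries tested, 2 passed against DO8 (Aja-miR-1 and Aja-miR-1a-3p) and 2 against DO4 (Aja-miR-1 and Aja-miR-133), all higher in DO2 on the deposited scale, and 0 passed for DO4 against DO8. With equal miRNA totals 3 passed in each DO2 comparison, all higher in DO2, and with clean reads as library size 3 passed in each, all lower. On the deposited scale only 1 of the 90 had an unadjusted p under 0.05 (limma) in DO4 against DO8, and it was not a muscle entry. With 5 muscle entries, a count of 2 lies near that background and says nothing particular about them. Groups did not overlap in 52.2% of the 90 entries and 3 of the 5 muscle entries in DO2 against DO8, in 36.7% and 2 in DO2 against DO4, and in 7.78% and 1 in DO4 against DO8. The median log2 change of the 5 muscle entries was 0.85, 0.37 and 0.18 in these comparisons in the same order, and that of all tested entries was -0.030, -0.14 and 0. By size of change from the highest, Aja-miR-1 stood 14th and Aja-miR-1a-3p 28th of 90 for DO2 against DO8, Aja-miR-133-3p stood 65th and Aja-miR-133a-5p last.

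**Figure D2:**
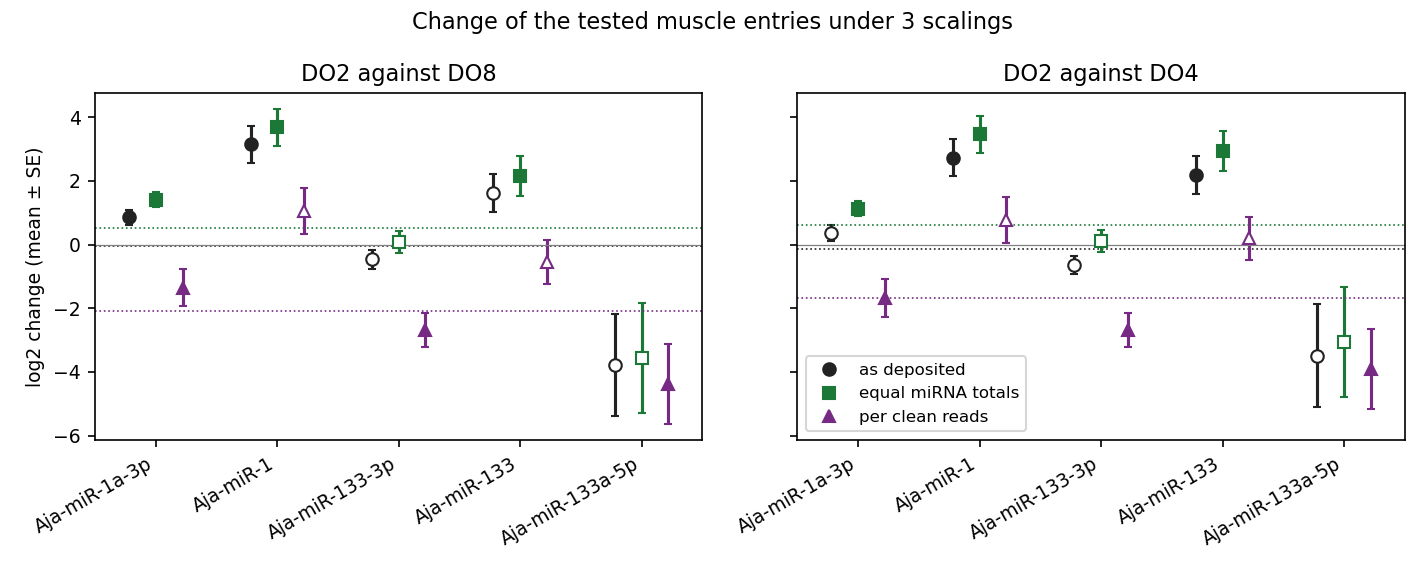
log2 change (mean ± SE, limma) of the 5 tested muscle entries in DO2 against DO8 and against DO4, with values as deposited (circles), with equal miRNA totals (squares) and with clean reads as library size (triangles). Filled symbols passed an adjusted p of 0.05 and dotted lines mark the median of all 90 tested entries, which moves from -0.030 to 0.51 and -2.08 against DO8, while the change of Aja-miR-133a-5p moves from -3.79 to -3.57 and -4.38.

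Shares and ratios within a library do not contain the library's scaling factor. The muscle entries made up 6.22%, 3.81% and 5.43% of all miRNA values in DO2, against 2.41%, 2.24% and 2.63% in DO4 and 1.86%, 1.80% and 2.57% in DO8. The widest exact 95% interval of these shares was 6.14% to 6.31%, in DO2_1. PCR reads are not independent molecules, so all intervals given cover counting error only. All DO2 libraries were above the other 6, and DO4 overlapped DO8. The means were 5.16% ± 1.23, 2.42% ± 0.193 and 2.08% ± 0.427 (SD, n = 3), a ratio of 2.48 between DO2 and DO8. Two-sided exact permutation tests gave p = 0.1 for both DO2 comparisons, the lower limit with 3 libraries a side, and p = 0.3 between DO4 and DO8. Adjusted over the 12 comparisons of shares and ratios, these p values became 0.15 and 0.4. No such comparison could reach 0.05. The higher share in DO2 holds within the miRNA total only. With clean reads as library size, Aja-miR-1a-3p, most of that share, was lower in DO2 (log2 change -1.35 against DO8 and -1.68 against DO4).

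The higher share in DO2 belonged to miR-1. The miR-1 family had 5.90%, 3.57% and 5.21% of the miRNA total in DO2, against 2.22%, 2.04% and 2.29% in DO4 and 1.70%, 1.55% and 2.23% in DO8, nearly all of it Aja-miR-1a-3p. The miR-133 family had 0.324%, 0.249% and 0.216% in DO2, against 0.190%, 0.199% and 0.338% in DO4 and 0.160%, 0.257% and 0.337% in DO8. The DO2 shares of miR-133 lay within the range of the other 6 libraries, while those of miR-1 lay above all of them. Without the fragment-like entries in the total, the difference in the muscle share between DO2 and DO8 was 3.18 percentage points, against 3.08 with them. Without the miR-10 family, the most abundant, it was 4.79 points, and that between DO2 and DO4 was 4.22 in place of 2.73. A smaller total raises the share in every library, so more points do not mean a larger relative difference. The ratio of these shares between groups was not worked out.

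The ratio of miR-1 to miR-133 was highest in the DO2 libraries. It was 18.2, 14.3 and 24.1 in DO2, against 11.7, 10.2 and 6.78 in DO4 and 10.6, 6.01 and 6.62 in DO8. Every DO2 library was above every other library, whereas DO4 and DO8 overlapped. The means of 18.9 ± 4.93, 9.57 ± 2.52 and 7.75 ± 2.49 (SD, n = 3) put DO2 at 2.44 times DO8 and 1.97 times DO4. Two-sided exact permutation tests gave p = 0.1 (adjusted 0.15) for both DO2 comparisons and p = 0.4 (adjusted 0.436) for DO4 against DO8.

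**Figure D3:**
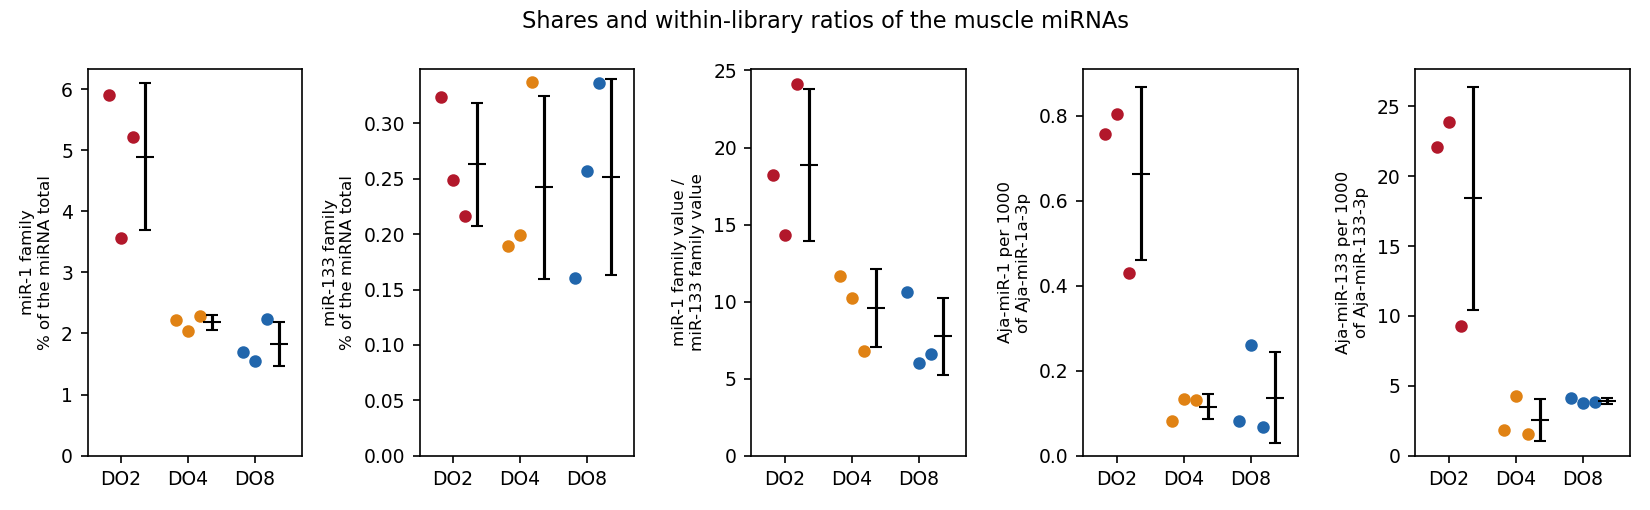
Share of the miR-1 and miR-133 families in the miRNA total, ratio of the families, and short per 1000 full forms, by group, on linear axes from 0. Points are libraries and black bars the mean ± SD. DO2 lies apart in every panel but that of the miR-133 share, where its 0.216% to 0.324% lies within the other libraries.

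The short forms were a small part of each family and a larger one in DO2. Per 1000 of Aja-miR-1a-3p there were 0.758, 0.803 and 0.430 of Aja-miR-1 in DO2, against 0.0823, 0.133 and 0.131 in DO4 and 0.0824, 0.261 and 0.0670 in DO8. All DO2 libraries lay above the rest. Counted as reads of both forms, DO2_3 had 0.430 per 1000 (exact 95% interval 0.306 to 0.587), which overlaps that of DO8_2 (0.163 to 0.394). The DO2 mean of 0.664 ± 0.204 was 4.86 times that of DO8 (0.137 ± 0.108) and 5.74 times that of DO4 (0.116 ± 0.0288; SD, n = 3; two-sided exact permutation tests, p = 0.1 each, adjusted 0.15). For DO4 against DO8 p was 0.9, adjusted 0.9.

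For miR-133, a ratio that was added after the values had been seen, there were 22.1, 23.9 and 9.28 short per 1000 full forms in DO2, against 1.81, 4.29 and 1.54 in DO4 and 4.16, 3.75 and 3.85 in DO8. The DO2 libraries were again above all others, DO2_3 the lowest of them. The mean of 18.4 ± 7.96 in DO2 was 4.70 times that in DO8 (3.92 ± 0.210) and 7.23 times that in DO4 (2.55 ± 1.51; SD, n = 3; two-sided exact permutation tests, p = 0.1 each, adjusted 0.15). In DO2_3 the exact 95% interval was 6.47 to 13.0 per 1000 reads of both forms, and the highest upper bound outside DO2 was 5.75. An exact permutation test of DO4 against DO8 gave p = 0.4 (adjusted 0.436).

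Short forms of some other miRNAs were also relatively more frequent in DO2, and not only those of the muscle miRNAs. Besides the muscle pairs, 7 pairs of tested entries had a short form that is the start of a full form listed in all 9 libraries. In 2 of these the DO2 libraries lay above all others, and in 5 they did not. Aja-miR-200, of a family best known from epithelia, stood at 1.58 to 5.37 per 1000 of Aja-miR-200-3p in DO2 and 0.308 to 1.07 elsewhere. Aja-miR-235a stood at 381 to 826 per 1000 of Aja-miR-92d in DO2 and at most 175 elsewhere. Pairs that overlapped include Aja-miR-124-3p with Aja-miR-124, of a family known from neurons, at 535 to 660 in DO2 and 398 to 612 elsewhere.

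**Figure D4:**
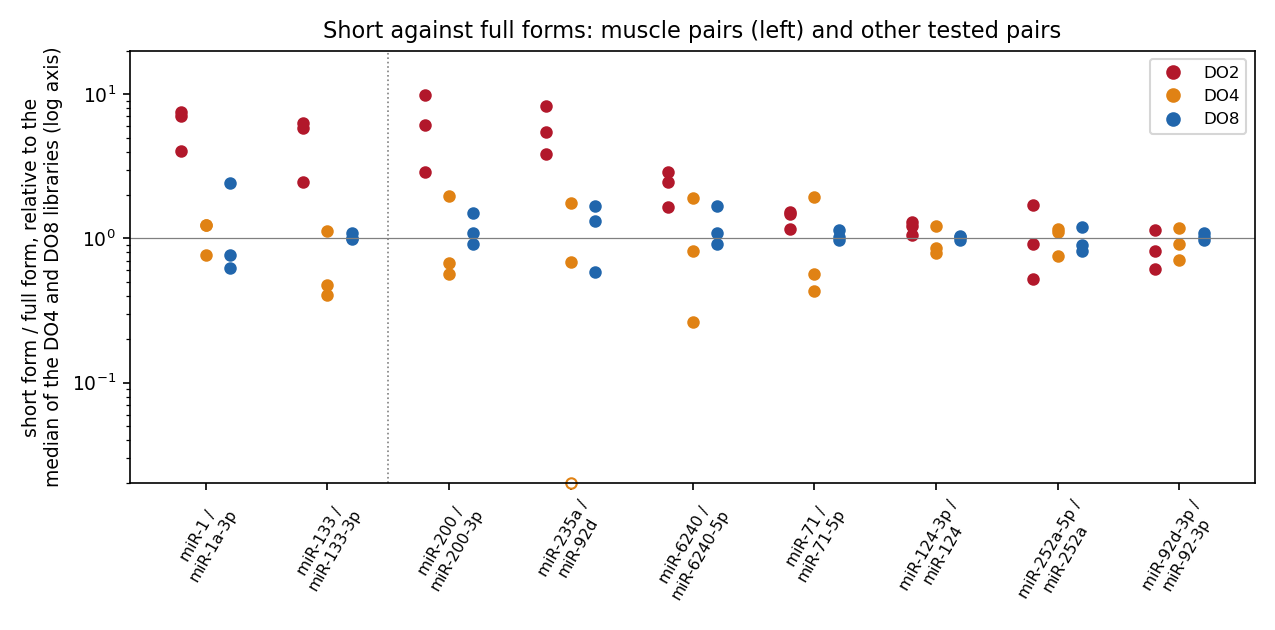
Short form divided by full form in each library, relative to the median of the 6 DO4 and DO8 libraries (log axis), for the muscle pairs (left of the dotted line) and 7 other pairs of tested entries. An open point on the axis stands for a ratio of 0. DO2 medians were 7.09 and 5.80 times that median for miR-1 and miR-133, 6.08 and 5.50 times for Aja-miR-200 and Aja-miR-235a, and 0.821 to 2.47 times for the rest.

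miRNAs of other families that take part in muscle growth or are enriched in smooth or skeletal muscle of vertebrates gave no calls on the deposited scale. Of 15 such families, 13 had an entry, with 17 entries in all, and 4 were tested. In limma, 0 passed the threshold in each of the 3 comparisons and 0 had an unadjusted p under 0.05, and their median log2 changes were 0.45 in DO2 against DO8, -0.060 in DO2 against DO4, and 0.070 in DO4 against DO8. Aja-miR-29a-3p and Aja-miR-29b-3p, of a family that targets collagen transcripts in mammals, had log2 changes of 0.48 and 0.41 between DO2 and DO8 (SE 0.27 and 0.27, adjusted p = 0.208 and 0.266 in limma). Those calls rest on the scaling: with equal miRNA totals both were called higher in DO2 (1.04 and 0.97, adjusted p = 0.0181 and 0.0243), and with clean reads as library size both were called lower (-1.72 and -1.80, adjusted p = 0.00790 and 0.00949; limma). Aja-miR-22-3p had -0.39 (adjusted p = 0.402), which was -2.60 with clean reads (adjusted p = 0.00073), and Aja-miR-26a-5p had 0.80 (adjusted p = 0.716; limma).

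Entries of other tissues were measured beside the muscle entries. Of 8 tested entries of families known from the nervous system, 3 rose in DO2 against both other groups (Aja-miR-137, Aja-miR-153-1-p5 and Aja-miR-153-3p, by 1.41, 2.21 and 1.47 against DO8, adjusted p = 0.0159, 0.0221 and 0.0453 in limma), a share of the list near the 31.1% called over all entries, and their list's share of the total was 0.105% to 0.178% in DO2 and 0.0487% to 0.0725% elsewhere. With clean reads as library size the changes against DO8 were -0.79, 0.24 and -0.70, and none of them passed. Of 4 epithelial and ciliary entries, 1 was called, Aja-miR-200-3p, which fell (log2 change -1.501 and -1.34, adjusted p = 0.00380 and 0.00635 in limma, against DO8 and DO4). It was not called with equal totals (-0.95 and -0.57) but was with clean reads as library size (-3.71 and -3.38, adjusted p = 0.000172 and 0.000512 in limma). The list's share was 1.66% to 1.87% in DO2 and 1.41% to 4.49% elsewhere. The 1 tested entry of vertebrate blood and liver families did not pass, and that list's summed value was 8.07 to 99.2 in DO2 and 0 to 212 elsewhere. All 6 fragment-like entries rose in DO2, by 5.89 to 8.35 against DO8 (adjusted p of at most 0.000572 in limma). The part of these shifts in the muscle results was not tested.

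The entries whose values were most like those of Aja-miR-1a-3p over the 9 libraries were Aja-miR-6236-5p, then Aja-miR-6236-3p and last Aja-miR-6240-5p (Pearson's r of log2(value + 1) 0.71, 0.71 and 0.70), all fragment-like. Most like Aja-miR-133-3p were Aja-let-7b-3p, Aja-miR-92d-3p and Aja-miR-200-3p (0.87, 0.68 and 0.65). The 2 full forms had an r of -0.27 with each other, and the 2 short forms one of 0.83. These are descriptions over 9 libraries in 3 groups, and the values of a library share its depth and scaling factor.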

How the data were processed

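Small RNA libraries of 16 to 30 nt were sequenced from 9 pools of respiratory tree RNA. Per the study's methods, the authors removed reads under 18 nt and reads of rRNA, tRNA, snRNA and snoRNA, aligned the rest to animal miRNAs of miRBase with up to 2 mismatches and predicted further miRNAs from hairpins. The submitters' processing notes name CASAVA 1.5. The labels describe an mRNA library from single animals, whereas the files hold small RNAs. The deposited values cannot show whether a library came from 1 animal or a pool. What was deposited is a signal: each miRNA's reads times 1 factor per library. They are not counts, as only 65.5% to 81.1% of a library's values are whole reads (within 0.02 of a read), so count tests were not used. The worth of 1 read came from predicted entries whose names give their reads (5 libraries, at least 5 names each) or was taken as 6 times the finest step between values. In DO4_2 the step gave 0.682 and the only such name 1.29, so its reads may be fewer than given. In DO2_3 the names were used under the same rule, and the step would have given another value.

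Entries of the 9 files were matched on name plus sequence. The 90 entries that some group listed in each of its 3 libraries were fitted as log2(value + 1) with limma 3.58.1 in R 4.3.3, 1 mean per group with a variance trend, with Benjamini-Hochberg adjustment. Fold changes are on that scale, which understates those of low entries. Shares and ratios were compared by exact permutation tests (Python 3.11.15 with scipy 1.17.1, pandas 2.3.3 and numpy 2.4.6), and figures drawn with matplotlib 3.10.9. The fit was tested on simulated data. All muscle entries are reported. Others are named if they are the 3 most like a full form or are list members past the threshold; the tested members of the other muscle list and the pairs of short and full forms were named after their values had been seen. The members, lists and tests were chosen with earlier results of these data known. Alternatives were other filters, pseudocounts, scalings, fits and each library left out.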

Additional observations from a re-analysis of the deposited data

How the results depend on the processing

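The number of muscle entries called in DO2 against DO8 was 1 to 3 with each library left out, and so was that in DO2 against DO4; DO4 against DO8 stayed at 0. With only the 2 groups compared in the fit, DO2 against DO4 called 1 in place of 2. No fitted direction of Aja-miR-1 reversed, but with clean reads as library size the changes of Aja-miR-133 (-0.54 against DO8) and Aja-miR-1a-3p (-1.35 against DO8, -1.68 against DO4) did. With equal miRNA totals those of Aja-miR-133-3p did (0.088 against DO8, 0.12 against DO4, -0.033 for DO4 against DO8), and the last, which ranged from -0.054 to 0.35 with each library left out, also without DO4_3 (-0.054) or DO8_1 (-0.031). Those scalings moved the median of all tested entries for DO2 against DO8 from -0.030 to 0.51 (equal totals) and -2.08 (clean reads), and for DO2 against DO4 from -0.14 to 0.62 and -1.67. Calls over all 90 entries rose from 28 to 68 and from 28 to 63 with clean reads. They fell to 18 for DO2 against DO8 without DO8_1. For DO4 against DO8, 1 entry was called with 0.1 added and 2 when only those groups were fitted or without DO2_1.

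The differences in share and in ratio between DO2 and the other groups kept their sign under every alternative run. For the share, these alternatives left out a library or changed which miRNAs the total held. None divided by clean reads. In RPM over clean reads, Aja-miR-1a-3p had 2035, 2260 and 8244 in DO2. It had 11627, 9730 and 10912 in DO4 and 8691, 7353 and 9905 in DO8. Aja-miR-133-3p had 109.4, 154.1 and 327.9 in DO2 and 807.9 to 1597.7 elsewhere. Every other muscle entry had at most 13.1. The muscle reads over clean reads thus had a lower mean in DO2, although DO2_3 lay above DO8_2 for Aja-miR-1a-3p. With clean reads as library size, Aja-miR-1a-3p was lower in DO2 (log2 change -1.35 against DO8 and -1.68 against DO4). That entry made up nearly all of the miR-1 share. Left-out libraries gave 2.55 to 3.75 percentage points for the muscle share in DO2 against DO8 and 8.53 to 13.4 for the ratio of miR-1 to miR-133. Without the miR-10 family in the total, the muscle share differed by 4.79 and 4.22 points between DO2 and the other groups, against 3.08 and 2.73. Shares rise in every library when the total shrinks, so the wider gap does not show a larger relative difference. The short to full miR-1 ratio in DO4 against DO8 was -0.0560 to 0.0408 per 1000 and changed sign without DO8_2. The miR-1 family has only 2 entries, so summing its other forms changed nothing.

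Libraries with the same number did not deviate together (correlations of -0.372 to 0.234, 2 of 9 over 0.1), so numbers were not taken to pair libraries. With the replicate block, 2 muscle entries were called in DO2 against DO8, 2 in DO2 against DO4 and 0 in DO4 against DO8. Of all 90 entries, 26, 27 and 0 were called in the same order. Few reads limit the short forms, which rest on 7 to 60 reads a library. Aja-miR-206-3p had 42 and 1.33 reads in the 2 libraries that listed it, DO2_3 and DO8_2. It was at 0 in all DO4 libraries, which held more miRNA reads than DO2_3.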
